A study of Rattus norvegicus with 6 samples.

Results

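Fos, Fosl1, Junb, Egr1, Ier3, Myc, Ets1 and Cebpb are genes whose mRNA follows growth factor signalling, and 7 of the 8 encode DNA-binding transcription factors. Every probe set that the array's annotation pairs with exactly 1 gene was searched for these 8 symbols. This gave 16 probe sets among 4818 tested, and 8 genes among 2890 named by such probe sets. Egr1 had 4 probe sets, Junb, Ier3, Myc, Ets1 and Cebpb had 2 each, and Fos and Fosl1 had 1 each. All 16 entered the fit, since no probe set was removed for a low signal.

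Expression was measured on Affymetrix rat arrays in 6 RNA samples from 2 fibroblast lines. 208F is an immortal rat fibroblast line, and FE8 is an HRAS-transformed rat fibroblast line. Each line was measured untreated (n = 1 for 208F and n = 1 for FE8) and after 96 h in 0.3 µM 5-aza-2'-deoxycytidine (n = 2 for each line). This drug is a cytidine analogue that is built into DNA and blocks DNA methyltransferases. The oncogene was represented by 1 transformed line, and Hras itself was not among the measured genes. The labels do not say whether the duplicates were separate cultures, so the p-values reflect the spread among these arrays, and that spread may be technical. For treated FE8 replicate 2 the run settings include a second scan, and 1 column of values was deposited for it.

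AP-1 is a dimer of a FOS family protein (such as Fos or Fosl1) with a JUN family protein (such as Junb). It binds DNA sites of the form TGANTCA, with C or G usual at N. Immediate early genes are transcribed within minutes of growth factor stimulation, without new protein synthesis. In many of them ERK, the last kinase of the RAS-RAF-MEK-ERK cascade, acts through ETS-type cofactors bound beside serum response factor at a CArG box. In RAS-transformed fibroblasts Fosl1 is known as a lasting AP-1 subunit, whereas Fos is usually a transient one.

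The drug blocks DNA methyltransferases, which act on CG sites. The 250 bases before the transcription start are therefore shown for the members with such a sequence, 4 of 8. They are from RefSeq on build GRCr8, on the plus strand, 5′ to 3′. Fosl1 lies at chr1:212183635-212183884, Junb at chr19:40080876-40081125, Egr1 at chr18:26736828-26737077 and Cebpb at chr3:176816755-176817004. Capitals mark the CArG box and TGACG, the half-site of the cAMP response element, on either strand.
Fosl1: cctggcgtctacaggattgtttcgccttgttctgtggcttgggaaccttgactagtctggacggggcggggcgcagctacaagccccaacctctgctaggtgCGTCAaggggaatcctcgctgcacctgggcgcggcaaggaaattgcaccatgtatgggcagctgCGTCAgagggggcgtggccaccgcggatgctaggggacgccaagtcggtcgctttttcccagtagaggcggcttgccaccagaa
Junb: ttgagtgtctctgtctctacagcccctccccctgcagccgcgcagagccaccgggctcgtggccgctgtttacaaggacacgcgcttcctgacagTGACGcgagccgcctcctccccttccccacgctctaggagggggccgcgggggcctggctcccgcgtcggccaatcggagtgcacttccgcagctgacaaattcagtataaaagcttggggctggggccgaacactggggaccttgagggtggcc
Egr1: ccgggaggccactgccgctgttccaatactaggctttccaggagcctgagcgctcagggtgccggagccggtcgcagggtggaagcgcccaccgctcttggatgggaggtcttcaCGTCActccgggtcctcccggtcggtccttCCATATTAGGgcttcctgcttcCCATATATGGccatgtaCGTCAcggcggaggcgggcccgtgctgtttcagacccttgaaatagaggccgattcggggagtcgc
Cebpb: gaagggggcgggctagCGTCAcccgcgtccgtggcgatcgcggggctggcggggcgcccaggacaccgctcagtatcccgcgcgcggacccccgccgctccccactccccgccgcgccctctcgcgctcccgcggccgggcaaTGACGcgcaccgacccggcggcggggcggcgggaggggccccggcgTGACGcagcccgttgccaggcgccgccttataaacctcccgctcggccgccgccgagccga

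Egr1, which encodes a zinc finger transcription factor, had 2 CArG boxes in this window, a motif found in 1.497% of 33469 RefSeq rat promoters of the same length. The other 3 sequences had none. TGACG occurred 2 times for Fosl1, 1 time for Junb, 2 times for Egr1 and 3 times for Cebpb, and 18.22% of promoters held it. TGANTCA with any base at N, a wider pattern than the usual AP-1 site, did not occur in these 4 windows (6.34% of promoters). Nor did the full cAMP response element TGACGTCA (1.587%), which contains TGACG. CG dinucleotides numbered 17 for Fosl1, 19 for Junb, 20 for Egr1 and 45 for Cebpb, against a median of 5 over all promoters. As many or more were present in 21.9%, 18.4%, 16.72% and 0.4153% of promoters, in the same order. These are matches of letters, and no methylation value was analysed here.

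**Figure D1:**
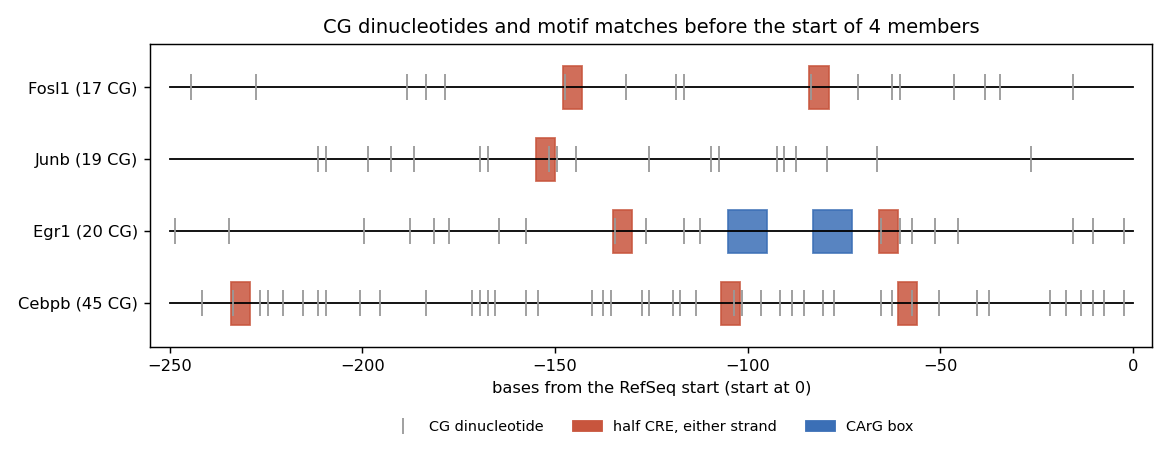
CG dinucleotides and motif matches in the 250 bases before the start of Fosl1, Junb, Egr1 and Cebpb, by distance from the start in bases. Both CArG boxes lie in Egr1, and Cebpb is the richest of the 4 in CG, with 45.

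Array medians lay between 354 and 422 signal units, and Pearson's r between the treated duplicates, taken across probe sets, was 0.959 (208F) and 0.969 (FE8). The median gap between duplicates was 0.304 (log2) over all probe sets and 0.425 over the 16 member probe sets in 208F, and 0.272 and 0.224 in FE8. Of 12 fibroblast markers 9 were measured. Their summed signals were 104960 in untreated 208F, and 83326 and 63990 in 208F with the drug. In FE8 they were 57987 untreated, and 38956 and 39275 with the drug. The markers did not all change alike. Without the drug Col1a1, Col1a2, Col3a1 and Fn1 were lower in FE8 (adjusted p under 0.05 in limma). P4hb and Vim lay lower, and Pdgfra, S100a4 and Thy1 higher, but none of these passed the test. Of 8 epithelial markers 3 were measured (Krt8, Krt18 and Epcam), and they summed to 168 and 145 in untreated 208F and FE8, and to 3039 to 4418 in the treated arrays. For skeletal muscle 4 of 8 were measured, with sums of 946 and 608 untreated and 1495 to 3463 treated. For endothelial cells 2 of 6 were measured (Flt1 and Kdr), with sums of 300 and 197 in the untreated lines. Treated sums were 269 and 198 (208F) and 516 and 542 (FE8). In FE8 Flt1 read 113 untreated and 507 and 540 treated, whereas Kdr read 84 untreated and 9 and 2 treated. The ratio of 5' to 3' beta-actin signal, a sign of RNA quality, was 0.824 in untreated 208F, 0.351 in untreated FE8 and 0.384 to 0.529 in the treated arrays. The same ratio for GAPDH was 0.916 in untreated 208F, 0.691 in untreated FE8 and 1.01 to 1.132 in the treated arrays. The part of these markers and ratios in the results below was not tested, and in such bulk RNA fewer cells of a type and less RNA per cell cannot be told apart. Both untreated arrays were run in a session of their own on chip lot 1. Treated 208F replicate 1 was run on lot 2 and the other 3 treated arrays on lot 3. The drug cannot be told apart from the session, whereas the untreated comparison of the lines lies within lot 1.

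**Figure D2:**
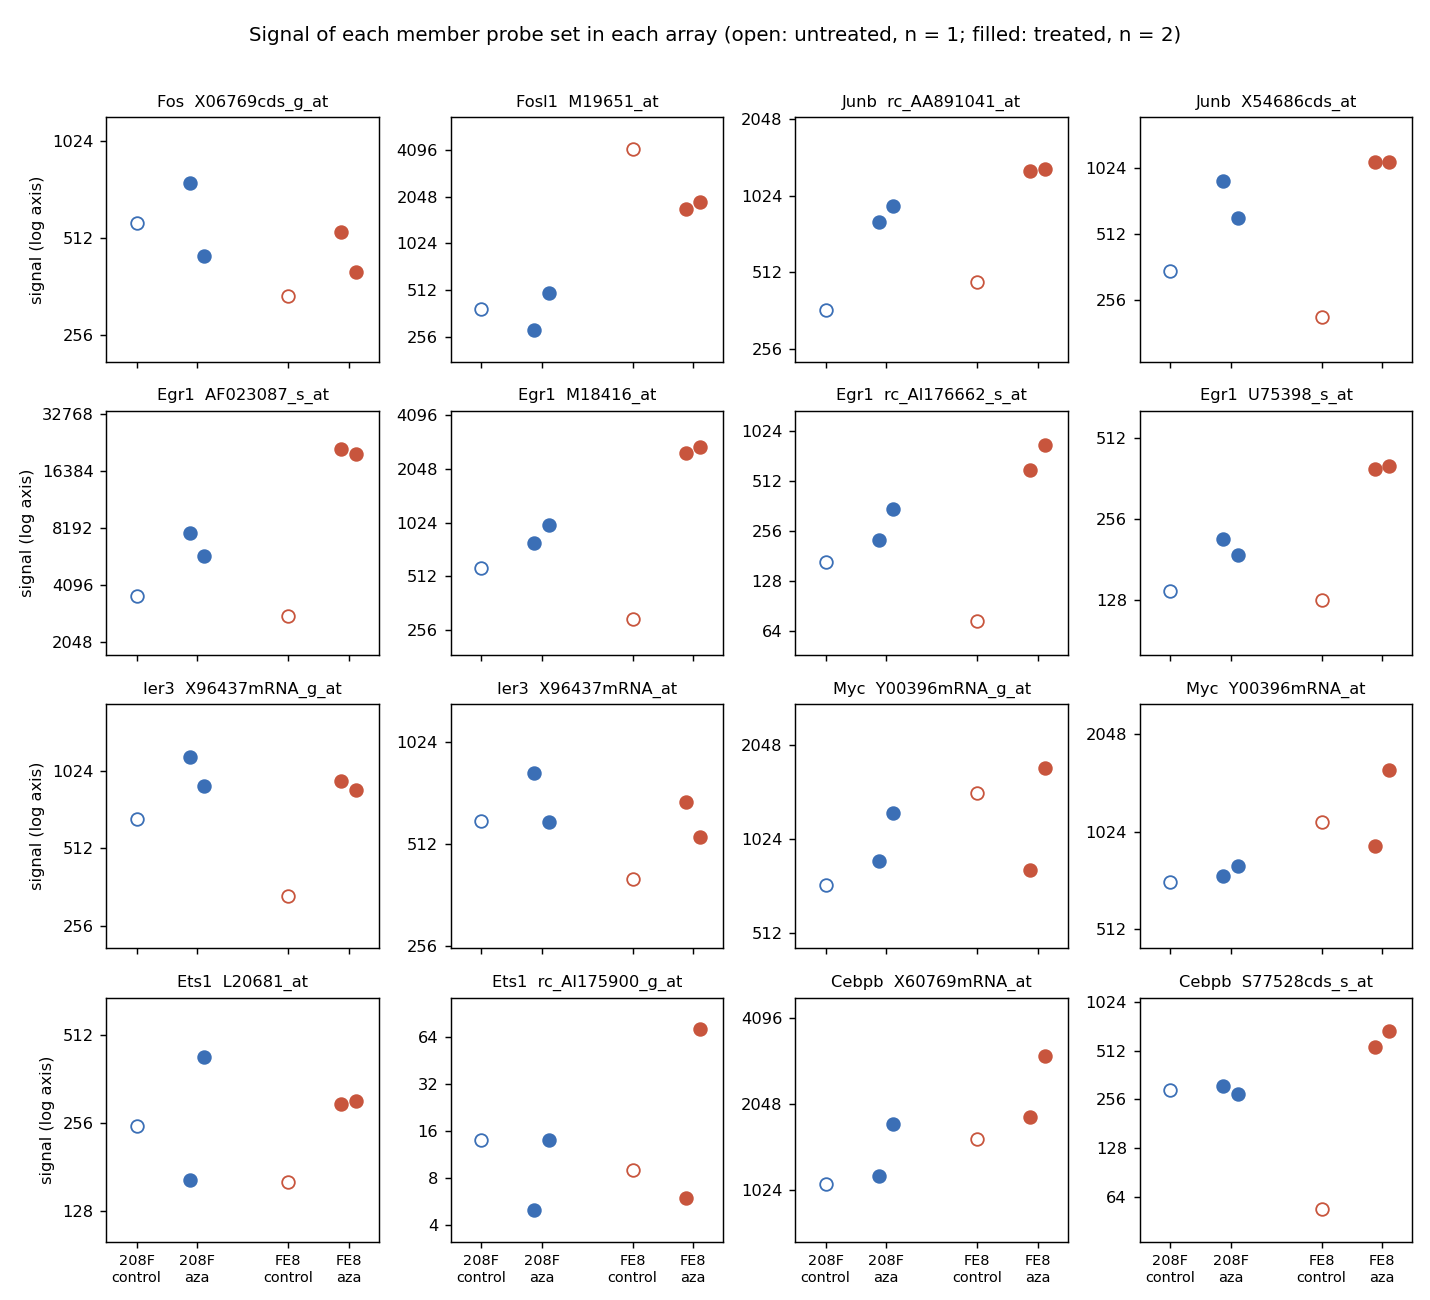
Signal of each of the 16 probe sets on each of the 6 arrays, on a log axis. Fosl1 is high in all 3 FE8 arrays (1706 to 4140 against 285 to 489 in 208F), and each Egr1 probe set is highest in the treated FE8 arrays.

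Fosl1, Egr1, Junb, Cebpb and Ier3 each had at least 1 probe set that passed the test in some comparison. Fosl1 was higher in FE8 than in 208F with and without the drug. Egr1 and Junb rose in treated FE8 cells. Junb also rose in treated 208F by 1 of its 2 probe sets, just under the threshold (adjusted p = 0.0497). For Egr1 3 of 4 probe sets were also higher in treated FE8 than in treated 208F. Cebpb and Ier3 rose in treated FE8 by 1 of their 2 probe sets each. No probe set of Fos, Myc or Ets1 passed the test in any of the 5 comparisons. No member passed the test of the difference between the drug effects in the lines. Differences below are on the log2(signal + 64) scale with standard errors, and a call is an adjusted p under 0.05 in limma. The untreated groups had 1 array each, and their spread was taken to equal that of the treated duplicates.

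Without the drug, 1 of 16 member probe sets was higher in FE8, against 3.09% of all tested probe sets, and 1 was lower, against 2.82%. With 16 probe sets, a count of 1 is near this background. Member differences had a median of -0.41, with 5 above 0 and 11 below, beside 0.02 over all tested probe sets. With the drug, 4 of 16 were higher in FE8 and none was lower, against 3.42% and 3.65% of all. Both treated FE8 arrays exceeded both treated 208F arrays in 10 of 16, against 20.7% of all, and the median difference was 0.57 for members and 0.00 for all. With only the brightest probe set of each of the 8 genes, the member medians were -0.018 without the drug and 0.36 with it.

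In treated against untreated 208F, 1 of 16 rose and none fell, against 3.59% and 1.6% of all tested probe sets. Both treated 208F arrays lay above the untreated array in 10 of 16, against 44.1% of all probe sets. The same comparison in FE8 called 7 of 16 higher, from 4 genes, and none lower, against 5.06% and 3.09% of all. Both treated FE8 arrays lay above untreated FE8 in 12 of 16, against 42.9% of all. Median drug differences were 0.38 for members and 0.11 for all probe sets in 208F, and 0.98 and 0.08 in FE8. With only the brightest probe set of each of the 8 genes, the member medians were 0.425 in 208F and 0.646 in FE8. Since probe sets of 1 gene share its mRNA, the 16 are not independent.

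The fold by which the drug changed expression differed between the lines for none of 16 members after adjustment, and for 0.0623% (3 of 4818) of all probe sets. At an unadjusted p under 0.05 the difference passed for 6 of 16 members and for 7.555% (364) of all probe sets. These members were AF023087_s_at, M18416_at and rc_AI176662_s_at of Egr1, X54686cds_at of Junb, S77528cds_s_at of Cebpb and the Fosl1 probe set. Fosl1 alone of them was below 0, at -1.14. Untreated 208F serves both the untreated line comparison and the 208F drug comparison, and untreated FE8 likewise, so these comparisons share arrays.

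Fosl1 encodes FRA-1, the AP-1 subunit named above. Its signal was 387 in 208F and 4140 in FE8 without the drug, and 285 and 489 in 208F and 1706 and 1890 in FE8 with it. Every FE8 array lay above every 208F array. The difference of FE8 from 208F was 3.22 ± 0.38 without the drug (adjusted p = 0.00041) and 2.08 ± 0.27 with it (adjusted p = 0.00055). The first kept its call in every alternative with all 6 arrays, between 2.77 and 3.37. Leaving out a treated array cannot move this first value, which rests on 1 untreated array per line. The second lost its call without treated FE8 replicate 2, at 2.01 (adjusted p = 0.058). Within lot 3, that is without treated 208F replicate 1, it was 1.75.

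In FE8 both treated arrays lay below the untreated one, and the drug difference of Fosl1 was -1.18 ± 0.33 (95% interval -1.90 to -0.46). It just missed the threshold (adjusted p = 0.0506). In alternatives with all 6 arrays it passed with the larger pseudocount tried, median scaling and the replicate block (adjusted p = 0.031, 0.022 and 0.045). Leaving out either treated 208F array left this value unchanged and changed its error alone. In 208F the drug difference was -0.04 ± 0.33, with 1 treated array on either side of the untreated one. The drug difference in FE8 minus that in 208F was -1.14 ± 0.46 (adjusted p = 0.57). Without treated 208F replicate 1 that value was -1.47.

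Fos, the founding member of the family, had 1 probe set. It read 573 in 208F and 340 in FE8 without the drug, and 758 and 451 in 208F and 537 and 402 in FE8 with it. The groups overlapped, and FE8 differed from 208F by -0.66 ± 0.43 untreated (adjusted p = 0.57) and -0.30 ± 0.30 treated (adjusted p = 0.78). The intervals reach from -1.60 to 0.28 and from -0.96 to 0.37, so a fall of more than 1 log2 unit lay within the first. Drug differences of Fos were 0.03 ± 0.37 in 208F and 0.39 ± 0.37 in FE8. The former turned to -0.09 with quantile normalization and -0.12 with median scaling.

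Junb encodes a JUN family partner of the FOS proteins. Its probe set rc_AA891041_at read 366 in 208F and 469 in FE8 without the drug, and 812 and 931 in 208F and 1280 and 1302 in FE8 with it. The second, X54686cds_at, read 347 and 214 in the untreated lines, and 901 and 607 (208F) and 1093 and 1095 (FE8) in the treated ones. By both probe sets every treated array lay above both untreated arrays. Junb rose with the drug in FE8 by 1.35 ± 0.29 (adjusted p = 0.016) and 2.06 ± 0.33 (adjusted p = 0.0031).

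In 208F the Junb differences were 1.12 ± 0.29 (adjusted p = 0.0497) and 0.97 ± 0.33 (adjusted p = 0.13). The call of rc_AA891041_at was lost in 9 of 11 alternatives, with adjusted p between 0.0096 and 0.18 over all of them. It was 0.055 without treated 208F replicate 2, and 0.18 and 0.17 without FE8 replicate 1 or 2. Without 208F replicate 2 the other probe set gave 1.23. The FE8 calls of both probe sets were lost without either treated FE8 array, at adjusted p of 0.17 and 0.15 for rc_AA891041_at and 0.081 and 0.081 for X54686cds_at. Junb did not pass in either line comparison: untreated differences were 0.31 ± 0.33 and -0.56 ± 0.38, and treated ones were 0.54 ± 0.24 and 0.53 ± 0.27. The FE8 drug difference of Junb minus that in 208F was 0.23 ± 0.41 and 1.09 ± 0.46 (adjusted p = 1.00 and 0.60).

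**Figure D3:**
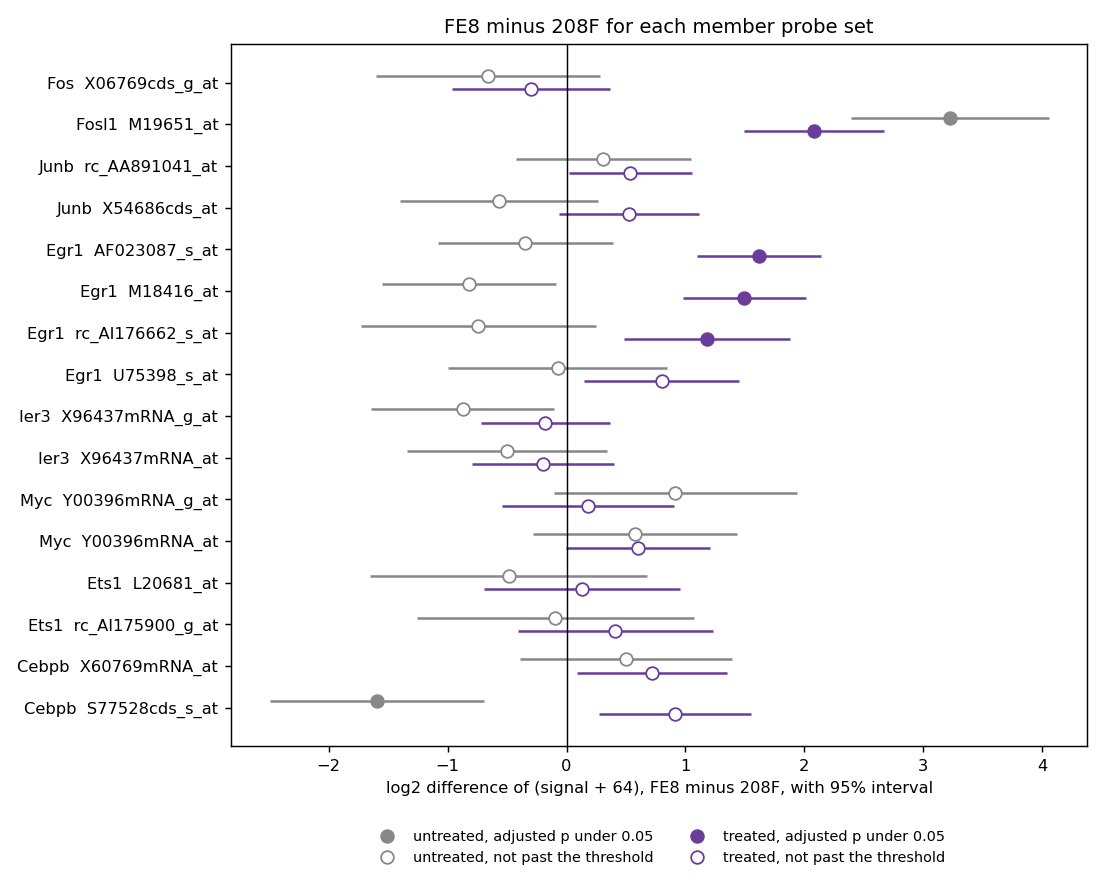
Difference of FE8 from 208F for each probe set, untreated (grey) and treated (purple), on the log2(signal + 64) scale with 95% intervals; filled points passed the test. Fosl1 is at 3.22 and 2.08, and 3 Egr1 probe sets are filled in the treated comparison.

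Egr1 encodes a zinc finger factor that binds GC-rich promoter sites and is a standard readout of ERK activity. Its brightest probe set, AF023087_s_at, read 3571 in 208F and 2798 in FE8 without the drug, and 7747 and 5821 in 208F and 21256 and 20151 in FE8 with it. M18416_at read 572 and 297 in the untreated lines, and 783 and 996 (208F) and 2504 and 2712 (FE8) in the treated ones. In both, untreated FE8 was the lowest array, and the treated FE8 arrays were more than 2 log2 units above it.

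The probe set rc_AI176662_s_at read 165 in 208F and 73 in FE8 without the drug, and 224 and 344 in 208F and 599 and 846 in FE8 with it. U75398_s_at read 138 and 128 in the untreated lines, and 215 and 187 (208F) and 391 and 402 (FE8) in the treated ones. All 4 ordered the groups alike: treated FE8 highest, then treated 208F, then untreated 208F, with untreated FE8 lowest. The suffix _s on 3 of them marks probe sets that may match more than 1 transcript.

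Egr1 rose with the drug in FE8 by 2.86 ± 0.29 (AF023087_s_at, adjusted p = 0.00017), 2.89 ± 0.29 (M18416_at, adjusted p = 0.00016) and 2.50 ± 0.39 (rc_AI176662_s_at, adjusted p = 0.0027). The difference of U75398_s_at was 1.26 ± 0.36 (adjusted p = 0.057). In alternatives with all 6 arrays it passed without an intensity trend and with the replicate block (adjusted p = 0.049 and 0.049). The first pair of calls held under every alternative run. The third was lost without treated FE8 replicate 2, at 2.27 (adjusted p = 0.077).

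In 208F the drug differences of Egr1 were 0.90 ± 0.29, 0.58 ± 0.29, 0.58 ± 0.39 and 0.39 ± 0.36 in the order AF023087_s_at, M18416_at, rc_AI176662_s_at and U75398_s_at. The smallest adjusted p was 0.12, and all 4 had both treated arrays above the untreated one. AF023087_s_at passed with quantile normalization (1.06, adjusted p = 0.037). Its value was 0.70 without treated 208F replicate 1 and 1.10 without replicate 2.

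The drug difference of Egr1 in FE8 minus that in 208F was 1.96 ± 0.41, 2.31 ± 0.41, 1.92 ± 0.55 and 0.87 ± 0.51, in that order of probe sets. Adjusted over all probe sets, p was 0.089, 0.055, 0.24 and 0.86, so none passed. Without treated 208F replicate 1 the value was 2.16 for AF023087_s_at and 2.15 for M18416_at. Without treated 208F replicate 2 it was 1.76, 2.47 and, for rc_AI176662_s_at, 2.17. In fits without a treated 208F array the error comes from the FE8 duplicates alone, which share a chip lot, so only differences are given. Among alternatives with all 6 arrays, M18416_at passed with median scaling (2.34, adjusted p = 0.027) and AF023087_s_at passed in none.

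Between treated cells Egr1 was higher in FE8 by 1.61 ± 0.24 (adjusted p = 0.0013), 1.49 ± 0.24 (adjusted p = 0.0021) and 1.18 ± 0.32 (adjusted p = 0.048), with 0.80 ± 0.30 for U75398_s_at (adjusted p = 0.17). Within lot 3 the first 3 were 1.82, 1.33 and 0.93, the last no longer passing (adjusted p = 0.14). AF023087_s_at and M18416_at lost the call without treated FE8 replicate 1 (adjusted p = 0.091 and 0.067) or replicate 2 (0.092 and 0.10). The third was lost in 6 of 11 alternatives, without either FE8 array among them (adjusted p = 0.16 and 0.42). Without the drug, FE8 minus 208F was below 0 for all 4 probe sets, at -0.34 ± 0.34, -0.82 ± 0.33, -0.74 ± 0.45 and -0.07 ± 0.42, with no adjusted p below 0.24.

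**Figure D4:**
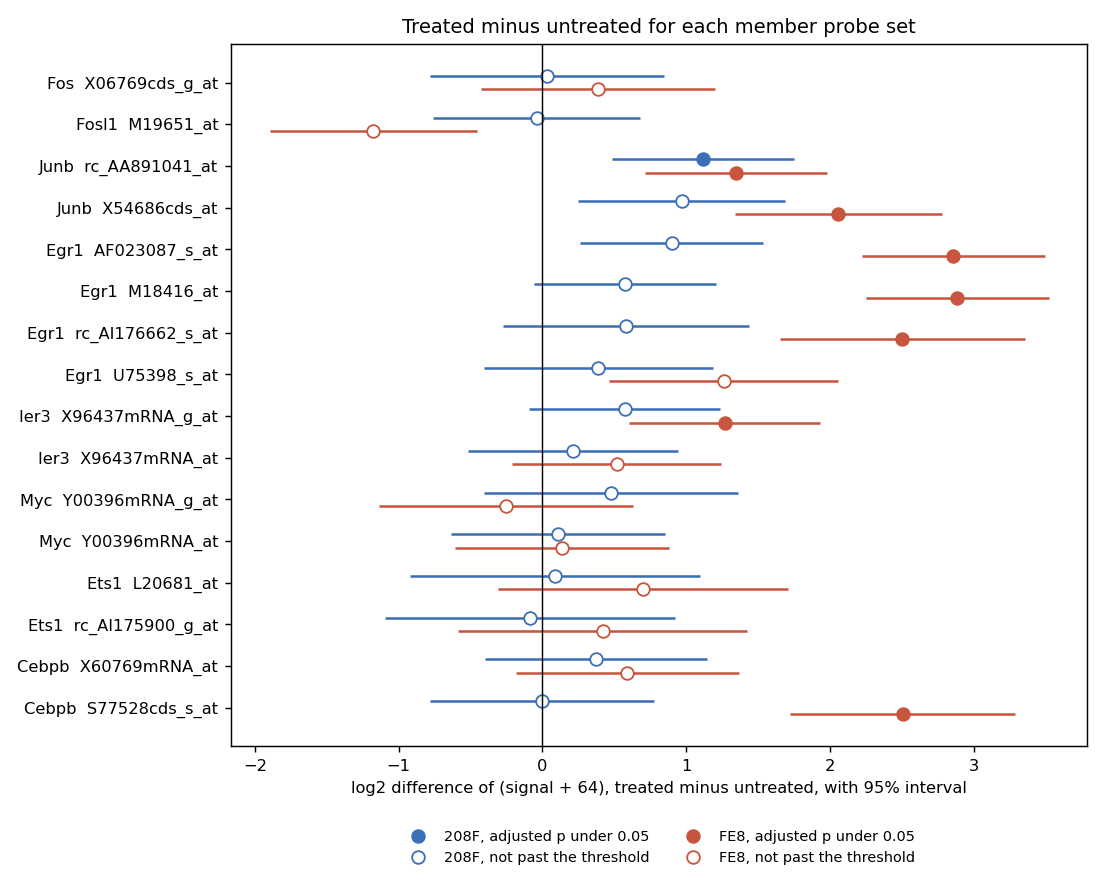
Drug difference, treated minus untreated, for each probe set in 208F and in FE8, on the log2(signal + 64) scale with 95% intervals; filled points passed the test. In FE8 the 7 filled points belong to Egr1, Junb, Cebpb and Ier3, and Fosl1 lies at -1.18 without passing.

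Cebpb encodes C/EBP-beta, a basic leucine zipper factor of inflammatory and growth responses and a known effector of RAS signalling. Its probe sets gave different patterns. X60769mRNA_at read 1075 in 208F and 1547 in FE8 without the drug, and 1144 and 1739 in 208F and 1843 and 3027 in FE8 with it. S77528cds_s_at read 292 and 54 in the untreated lines, and 308 and 276 (208F) and 539 and 681 (FE8) in the treated ones, so that untreated FE8 was by far the lowest and below the pseudocount of 64.

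By S77528cds_s_at Cebpb rose with the drug in FE8 by 2.51 ± 0.35 (adjusted p = 0.0016), a call kept in all 11 alternatives, and differed by 0.00 ± 0.35 in 208F. The FE8 value of S77528cds_s_at rests on 1 untreated reading of 54, below the pseudocount, and ran from 1.48 to 3.15 over the alternatives. This probe set also carries the suffix _s. By X60769mRNA_at the FE8 difference was 0.59 ± 0.35 (adjusted p = 0.38). Untreated FE8 was lower than untreated 208F by S77528cds_s_at, at -1.59 ± 0.41 (adjusted p = 0.046), where X60769mRNA_at gave 0.50 ± 0.41 (adjusted p = 0.71). That call was lost in 5 of 11 alternatives, among them the fits without treated FE8 replicate 1 or 2 (adjusted p = 0.12 and 0.12) and the larger pseudocount tried, which gave -0.82. The fall of Cebpb in untreated FE8 therefore rests on 1 of 2 probe sets with opposite signs.

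For S77528cds_s_at the FE8 drug difference minus that in 208F was 2.51 ± 0.50 (adjusted p = 0.074). It passed with median scaling (2.56, adjusted p = 0.036), and was 2.57 and 2.44 without treated 208F replicate 1 or 2. Between treated cells both Cebpb probe sets were above 0, at 0.91 ± 0.29 (S77528cds_s_at, adjusted p = 0.098) and 0.72 ± 0.29 (X60769mRNA_at, adjusted p = 0.21). Without treated 208F replicate 2 the second was 1.01.

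Ier3 encodes an immediate early protein that modulates apoptosis and ERK signalling, and it is the one member that is not a DNA-binding factor. X96437mRNA_g_at read 667 in 208F and 335 in FE8 without the drug, and 1163 and 898 in 208F and 935 and 860 in FE8 with it. X96437mRNA_at read 595 and 402 in the untreated lines, and 825 and 591 (208F) and 678 and 534 (FE8) in the treated ones. Both had their lowest value in untreated FE8.

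Ier3 rose with the drug in FE8 by the first probe set, at 1.27 ± 0.30 (adjusted p = 0.027), and the second gave 0.52 ± 0.33 (adjusted p = 0.43). The call was lost in 4 of 11 alternatives: quantile normalization, no intensity trend, and without treated FE8 replicate 1 or 2 (adjusted p = 0.24 and 0.17). In 208F the values were 0.57 ± 0.30 and 0.21 ± 0.33. The untreated difference, FE8 minus 208F, was -0.87 ± 0.35 and -0.50 ± 0.38 (adjusted p = 0.23 and 0.67), and in treated cells the lines differed by -0.18 ± 0.25 and -0.20 ± 0.27.

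Myc encodes a basic helix-loop-helix factor that drives growth and ribosome synthesis. Y00396mRNA_g_at read 731 in 208F and 1434 in FE8 without the drug, and 871 and 1243 in 208F and 815 and 1726 in FE8 with it. Y00396mRNA_at read 715 and 1095 in the untreated lines, and 749 and 804 (208F) and 922 and 1581 (FE8) in the treated ones. The treated FE8 duplicates straddled the untreated FE8 array by both probe sets. The untreated difference of FE8 from 208F was 0.91 ± 0.46 (adjusted p = 0.40) and 0.57 ± 0.39 (adjusted p = 0.60). Leaving out a treated array changes only the error of these untreated differences. Drug differences of Myc were 0.48 ± 0.40 and 0.11 ± 0.34 in 208F, and -0.26 ± 0.40 and 0.14 ± 0.34 in FE8. With median scaling the Y00396mRNA_at values were below 0 in both lines (-0.0445 and -0.0013).

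Ets1 encodes the founding ETS family factor. L20681_at read 251 in 208F and 161 in FE8 without the drug, and 163 and 429 in 208F and 298 and 305 in FE8 with it. The treated 208F duplicates, 163 and 429, spanned almost the whole range of the 6 arrays. Its second probe set, rc_AI175900_g_at, was at or below 14 on 5 arrays and at 72 in treated FE8 replicate 2, so its signals lay mostly below the pseudocount of 64. By L20681_at the FE8 minus 208F values of Ets1 were -0.49 ± 0.53 untreated and 0.13 ± 0.37 treated, and the drug values were 0.09 ± 0.46 in 208F and 0.70 ± 0.46 in FE8. The 208F value turned to -0.15 with quantile normalization and -0.05 with median scaling.

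Other genes around these factors were taken from 8 lists with 162 genes, of which 75 were measured, each by its brightest probe set. Of the 75, 18 were called higher and 2 lower with the drug in FE8, and 11 and 0 in 208F. Over all tested probe sets these shares were 5.06% and 3.09% in FE8 and 3.59% and 1.6% in 208F. Here and in the lists below, these shares include dim and repeated probe sets. They are therefore not matched to the brightest probe set per gene. Between the lines, 12 were called higher in FE8 and 2 lower without the drug (3.09% and 2.82% over all), and 15 and 3 with it (3.42% and 3.65%). The difference between the drug effects was called for none (limma). None of the 13 other ETS family genes listed had a probe set paired with 1 gene.

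Among AP-1 and ATF subunits 8 of 18 were measured (Atf2, Atf3, Creb1, Crem, Fosl2, Jun, Maf and Mafk), and Atf3 alone passed a test. Atf3, a stress-induced partner of JUN proteins, read 94 in 208F and 207 in FE8 without the drug, and 479 and 493 in 208F and 682 and 794 in FE8 with it. Every treated array was above both untreated ones. Atf3 rose by 1.80 ± 0.33 in 208F (adjusted p = 0.0096) and 1.56 ± 0.33 in FE8 (adjusted p = 0.015). Without treated FE8 replicate 1 or 2 neither call stood (adjusted p = 0.062 and 0.062 in 208F, 0.11 and 0.15 in FE8).

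Among other immediate early genes 21 of 34 were measured. With the drug 7 rose in 208F and 11 in FE8, against 3.59% and 5.06% of all probe sets. None was lower, against 1.6% and 3.09%. The list medians were 0.96 and 1.24, beside 0.11 and 0.08 over all probe sets. Without treated FE8 replicate 1 or 2 the counts were 3 and 4 in 208F and 3 and 1 in FE8. Without treated 208F replicate 1 the 208F count was 11. Dusp1, a phosphatase of MAP kinases, read 716 in 208F and 403 in FE8 without the drug, and 2562 and 3044 in 208F and 1416 and 1990 in FE8 with it. It rose by 1.87 ± 0.30 in 208F and 1.90 ± 0.30 in FE8 (adjusted p = 0.0045 and 0.0028), the latter not called without treated FE8 replicate 2 (adjusted p = 0.090).

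Egr2, the paralogue of Egr1, read 50 in 208F and 94 in FE8 without the drug, and 59 and 75 in 208F and 576 and 507 in FE8 with it. Only the treated FE8 arrays were well above the pseudocount. Egr2 rose by 1.94 ± 0.38 in FE8 (adjusted p = 0.0097) and was higher in treated FE8 than in treated 208F by 2.21 ± 0.31 (adjusted p = 0.00093). Id1 and Id2, inhibitors of helix-loop-helix factors, rose in both lines: Id1 by 1.86 ± 0.29 and 2.63 ± 0.29, and Id2 by 2.99 ± 0.34 and 2.08 ± 0.34, in 208F and FE8. Ccl2, a chemokine, rose by 3.03 ± 0.42 and 2.57 ± 0.42. Leaving out treated FE8 replicate 1 or 2 ended the drug calls in FE8 of Egr2 (adjusted p = 0.10 and 0.081), Id2 (0.091 and 0.11) and Ccl2 (0.062 and 0.12). Leaving out treated FE8 replicate 1 ended that of Id1 in 208F (adjusted p = 0.0501).

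Between the untreated lines 3 of these 21 immediate early genes were called higher in FE8 and 2 lower, against 3.09% and 2.82% of all probe sets. Between the treated lines the counts were 4 and 2, against 3.42% and 3.65%. The 4 became 2 and 1 without treated FE8 replicate 1 or 2 and 6 without treated 208F replicate 2, and the treated count of lower genes was 4 without treated 208F replicate 1. Klf4, a zinc finger factor, was higher in untreated FE8 by 3.14 ± 0.59 (adjusted p = 0.0089), a call lost without either treated FE8 array. It read 45 in untreated 208F, below the pseudocount of 64, and 900 in untreated FE8. In treated 208F Klf4 read 443 and 1439, and the treated lines differed by 0.51 ± 0.42 (adjusted p = 0.69). Ccl2 was higher in untreated FE8 by 2.96 ± 0.49 and Btg1, an antiproliferative gene, by 2.34 ± 0.35. Ccn1 and Rhob, a matrix protein and a GTPase, were lower in untreated FE8, with differences of -2.94 ± 0.35 and -2.92 ± 0.38.

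**Figure D5:**
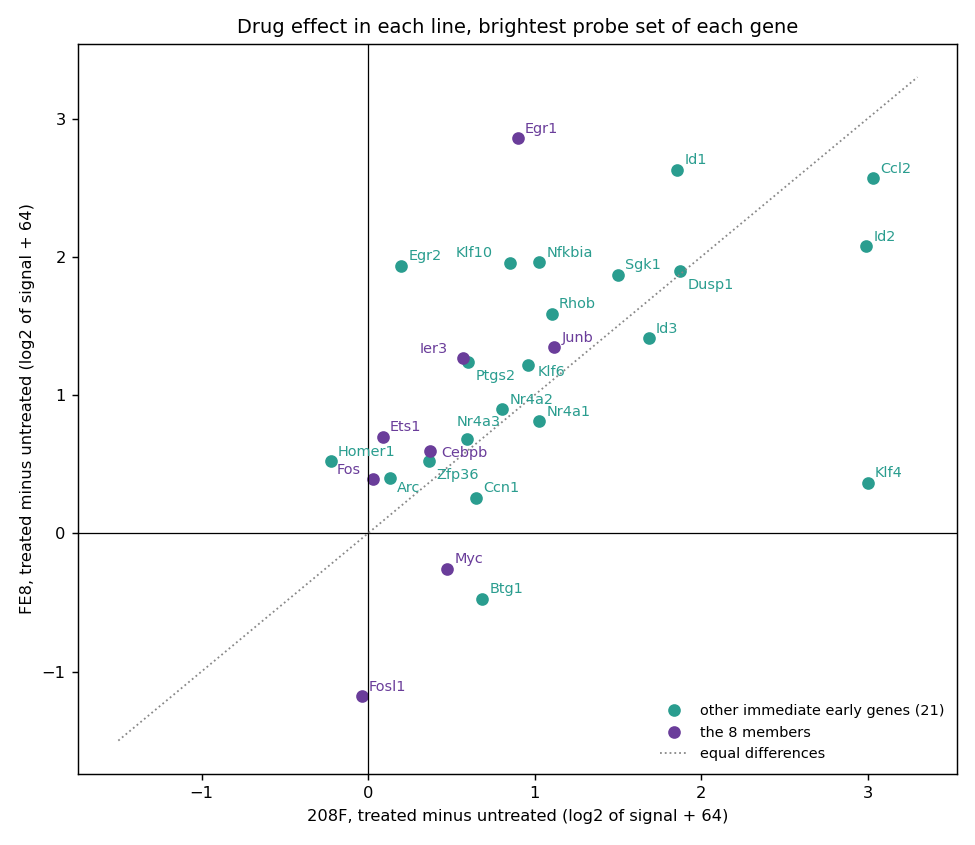
Drug difference in FE8 (vertical) against that in 208F (horizontal) for the brightest probe set of each member (purple) and of 21 other immediate early genes (green), on the log2(signal + 64) scale; the dotted line marks equal differences. Egr1 lies at 0.90 and 2.86 and Fosl1 at -0.04 and -1.18, while Id2 and Ccl2 lie near 3 in 208F and above 2 in FE8.

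AP-1 target genes were measured for 19 of 26. In untreated FE8 5 were called higher and none lower, against 3.09% and 2.82% of all probe sets. With the drug 8 were called higher and 1 lower than in 208F, against 3.42% and 3.65%. Lox, the matrix crosslinking oxidase, had an untreated difference of -1.14 that was not called. The list medians were 0.33 and 0.91, beside 0.02 and 0.00 over all probe sets. Mmp10, the matrix protease stromelysin-2, read 14 in 208F and 12849 in FE8 without the drug, and 22 and 63 in 208F and 17685 and 17769 in FE8 with it. Mmp13, a collagenase, read 222 and 14268 in the untreated lines, and 140 and 164 (208F) and 6859 and 8014 (FE8) in the treated ones. Like Fosl1, Mmp13 had its highest signal in untreated FE8, but its drug difference there was not called (-0.94, adjusted p = 0.060). The other targets called higher in untreated FE8, Mmp10, Mmp3, Spp1 and Plat, had their lowest FE8 signal in the untreated array. The FE8 arrays of Mmp10 and Mmp13 were far above every 208F array. Untreated differences were 7.37 ± 0.35 for Mmp10 and 5.65 ± 0.32 for Mmp13 (adjusted p = 1.6e-06 and 2.4e-06). The untreated and treated counts fell to 3 and 4 without treated FE8 replicate 1, and to 3 and 3 without replicate 2.

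Of the 19 AP-1 target genes measured, 6 rose with the drug in FE8 and 1 fell, against 5.06% and 3.09% of all probe sets. In 208F 1 of 19 rose, Plau, and none fell, against 3.59% and 1.6%. The 208F count is near this background. Plau, the urokinase protease, read 48 in 208F and 61 in FE8 without the drug, and 347 and 356 in 208F and 635 and 676 in FE8 with it. It rose by 1.89 ± 0.35 in 208F and 2.52 ± 0.35 in FE8 (adjusted p = 0.01 and 0.0016). Lox fell by 1.56 on the log2 scale in FE8 (adjusted p = 0.0046). The call of Lox was lost without either treated FE8 array (adjusted p = 0.088 and 0.13), as was that of Plau in 208F (adjusted p = 0.059 and 0.059). The FE8 count was 3 with quantile normalization and 1 without either treated FE8 array, and the 208F count was 5 without treated 208F replicate 1, 3 without replicate 2 and 0 without either FE8 array.

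Of the MAPK cascade 10 of 27 genes were measured, and Map2k2 (MEK2) alone passed, with a difference of -1.21 ± 0.28 with the drug in FE8 (adjusted p = 0.024). That call was lost without either treated FE8 array (adjusted p = 0.26 and 0.19), with quantile normalization and without an intensity trend. Of 9 ERK feedback regulators 3 were measured (Dusp5, Dusp6 and Spry1). Dusp6, the cytoplasmic ERK phosphatase, read 436 in 208F and 4313 in FE8 without the drug, and 1533 and 2156 in 208F and 6631 and 6241 in FE8 with it. It was higher in FE8 by 3.13 ± 0.33 untreated and 1.79 ± 0.23 treated, and it rose with the drug in 208F by 1.91 ± 0.29 (adjusted p = 0.0031). The last 2 of these calls of Dusp6 were lost without treated FE8 replicate 1 (adjusted p = 0.053 and 0.056) or replicate 2 (0.057 and 0.054). Dusp5, its nuclear relative, was higher in FE8 by 2.24 ± 0.31 and 1.92 ± 0.22.

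Of 26 MYC partners and targets 10 were measured, and Mxi1, a MAX-binding antagonist of Myc, alone passed, higher in untreated FE8 by 1.32 ± 0.34 (adjusted p = 0.048). It lost the call in 6 of 11 alternatives, among them without either treated FE8 array (adjusted p = 0.19 and 0.19). Of 9 C/EBP genes and partners 4 were measured. Ddit3 (CHOP), a C/EBP protein of the stress response that dimerizes with C/EBP-beta, read 459 in 208F and 4972 in FE8 without the drug, and 2642 and 2455 in 208F and 5429 and 6724 in FE8 with it. It was higher in untreated FE8 by 3.27 ± 0.31 (adjusted p = 9.6e-05) and rose in treated 208F by 2.32 ± 0.27 (adjusted p = 0.00054). In treated cells it was higher in FE8 by 1.23 ± 0.22 (adjusted p = 0.0051), a call lost without either treated FE8 array (adjusted p = 0.084 and 0.20).

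For the brightest probe set of each gene with a call, the genes with the most similar profile were ranked by the root mean square difference of centred log2 profiles over the 6 arrays. Nearest to Fosl1 were Rnf130 (0.233), Slc6a15 (0.335) and Ugt2a1 (0.355). Nearest to Egr1 (AF023087_s_at) were Nppb (0.233), Penk (0.282) and Epcam (0.284), and nearest to Junb (rc_AA891041_at) were Lgals3 (0.076), Rab14 (0.107) and Mdm2 (0.132). Ier3 had Txnrd1 (0.102), Met (0.137) and Or1ad6 (0.138), and Cebpb (X60769mRNA_at, which itself passed in no comparison) had Epb41 (0.053), Rb1 (0.124) and Ampd3 (0.166). As an example, Nppb read 61 in 208F and 11 in FE8 without the drug, and 127 and 161 in 208F and 690 and 565 in FE8 with it, the same order of groups as Egr1.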

How the data were processed

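The 6 arrays were grouped by title. The deposited values are linear signal intensity per probe set, made with MAS5 per the submitters' processing notes, which give no version. The table held 4847 probe sets, chosen by a filter not given in the sources used here; 29 controls were left out and 4818 tested. The platform annotation gave 1 gene for 3956, several for 207 and none for 655; gene identifiers matched 3942. Chip lot and session came from run settings that the authors deposited with each array.

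Signals were used as log2(signal + 64), 64 being their 10th percentile, without further normalization, which holds down differences of dim probe sets. A model with 4 group means was fitted in limma 3.58.1 (R 4.3.3; lmFit, eBayes with an intensity trend; 2 residual and 9.02 prior degrees of freedom). Tests were 2-sided, with Benjamini-Hochberg adjustment over 4818 probe sets and a threshold of 0.05. The code was tested on simulated data. Precision is limited by the number of arrays.

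The members and gene lists were chosen with earlier results of these data known. Every member probe set was named, and at most 4 called genes per list, comparison and direction by size, beside the 3 nearest profiles of each called member. From the list genes that qualified, those described were picked after their values were seen. Alternatives were a smaller pseudocount (16) and a larger one (4 times 64), quantile normalization, median scaling, no intensity trend, a mean signal of at least 200, a replicate block and leaving out each treated array.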

Additional observations from a re-analysis of the deposited data

How the results depend on the processing

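Of the 14 called member values, 120 of 154 alternative fits kept the call. Leaving out a treated FE8 array, so that the error comes from the 208F duplicates alone, lost most: 6 and 4 of 14 stayed. Of 875 member values, 24 changed sign, all of them uncalled.

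Member calls were 2 (untreated lines), 4 (treated lines), 1 (drug in 208F), 7 (drug in FE8) and 0 (difference of drug effects). The untreated count was 1 with the larger pseudocount, quantile normalization or the replicate block, and the 208F count was 0 with the larger pseudocount, median scaling, no intensity trend, the filter at 200 or the replicate block. The difference count was 2 with median scaling. Leaving out 1 treated array gave 1 to 3, 0 to 5, 0 to 2, 3 to 9 and 0 to 4.

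Over all probe sets the counts were 285, 341, 250, 393 and 3. Quantile normalization gave 164 in 208F and 257 in FE8. The difference count was 10 and 6 with the smaller and the larger pseudocount, 27 with median scaling, and 0 with quantile normalization, no intensity trend, the filter at 200 or the replicate block. Leaving out 1 treated array gave 109 to 541, 96 to 530, 75 to 663, 76 to 783 and 0 to 206. Calls of the 208F drug effect were 69.2% higher, and 57.95% (164 higher, 119 lower) with median scaling, which moved the median of all probe sets from 0.11 to -0.01. The cause was not tested.

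Replicate numbers are shared by the lines, but with 2 pairs (r = 0.319 between the deviations of like numbers) they were not taken to pair the samples. The replicate block gave 285, 325, 216, 429 and 0 calls over all probe sets, and 1, 4, 0, 9 and 0 over members.

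Uncalled values that changed sign did so as follows. The drug difference in 208F was -0.0946 for Fos and -0.1458 for Ets1 (L20681_at) with quantile normalization, and -0.117, -0.0525 and, for Myc (Y00396mRNA_at), -0.0445 with median scaling, which also gave -0.0013 for that Myc probe set in FE8. Leaving out 1 treated array gave treated line differences of -0.6353 to 0.0393 (Fos), -0.4164 to 0.0243 (Ier3 X96437mRNA_at), -0.3307 to 0.6953 (Myc Y00396mRNA_g_at), -0.4318 to 0.6871 (Ets1 L20681_at) and -0.0677 to 0.8905 (Ets1 rc_AI175900_g_at). The 208F drug difference ranged from -0.3067 to 0.3678 (Fos), -0.3699 to 0.2942 (Fosl1), -0.0088 to 0.4319 (Ier3 X96437mRNA_at), -0.4727 to 0.6462 (Ets1 L20681_at) and -0.0663 to 0.0634 (Cebpb S77528cds_s_at). The FE8 drug difference ranged from -0.2332 to 0.5052 (Myc Y00396mRNA_at), -0.7691 to 0.2569 (Myc Y00396mRNA_g_at) and -0.0605 to 0.8976 (Ets1 rc_AI175900_g_at). The difference of drug effects ranged from -0.3421 to 0.3964 (Myc Y00396mRNA_at) and -0.1304 to 0.5664 (Cebpb X60769mRNA_at). A mean signal of Ets1 rc_AI175900_g_at under 200 left it out of the filtered fit.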
